A study of Mus musculus with 44 samples.

Results

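The comparison was between livers of mice lacking Mlkl and livers of wild-type mice, both kept on a normal chow (the control diet). Its members were 12 of the 44 libraries of the series, chosen by genotype and diet from the labels: 6 Mlkl knockout libraries (Mlkl-/-, here MlklKO) and 6 wild-type libraries (WT). The mice were 2 months old when their diet began and stayed on it for 6 months, and each library was made from about 25 mg of liver. The series also holds Ripk3 knockouts (Ripk3-/-, here Ripk3KO) and a choline-deficient diet high in fat (CD-HFD), of which 6 Ripk3KO libraries on control diet, 6 WT libraries on CD-HFD and 3 MlklKO libraries on CD-HFD were used for reference. The series examined inflammation and tumour incidence when necroptosis is blocked, with chow-fed mice as the baseline. Sex, litter, strain background, time of killing and batch were not given in the labels, and neither was the part of Mlkl that was removed.

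MLKL is the executioner of necroptosis, a lytic form of programmed cell death: once phosphorylated by RIPK3 it oligomerises and breaks the plasma membrane. Healthy hepatocytes contain little of this machinery, and most study of it in liver concerns inflamed or fatty tissue. The acute-phase response is the liver's reaction to inflammatory cytokines, in which interleukin-6 acting through STAT3, and interleukin-1 acting through NF-kappaB and C/EBP factors, raise the synthesis of secreted defence proteins such as serum amyloid A.

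The libraries were not alike in RNA composition or in the phase of their clock genes. Total counts ran from 2476268 to 8087208 in WT and from 5451832 to 9291737 in MlklKO. WT replicates 5 and 6 held more counts in predicted genes (1.83% and 2.44%) than the other WT libraries and every MlklKO library, whose highest was 1.31% and 1.26%. They also held more mitochondrial transcripts (7.62% and 13.4%, against at most 4.75% in MlklKO). The ratio of the clock gene Arntl to the clock output gene Dbp split the WT group: WT replicates 1, 3, 5 and 6 had log2 ratios of 0.10 to 2.73, whereas WT replicates 2 and 4 and all MlklKO libraries lay between -8.01 and -3.71. Hepatocyte markers were abundant throughout (1 of 10 called), and Ddx3y, from the Y chromosome, was read in all 12 libraries at 67.1 CPM or more. Levels below are CPM (counts scaled to the library total) adjusted by TMM, a between-library normalisation, unless stated. In whole-liver RNA, fewer cells of a type and less RNA per cell cannot be told apart.

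Mlkl itself was examined first. WT libraries held 5 to 35 reads of Mlkl and MlklKO libraries 9 to 22. Its level in WT had a lowest value of 2.28, a median of 5.37 and a highest value of 6.14 CPM, and in MlklKO of 1.46, 2.09 and 3.03. Only WT replicate 5, the shallowest library, fell within the MlklKO range; 4 of 6 MlklKO libraries lay below every WT library. The log2 difference was -1.17 (SE 0.28, adjusted p = 0.0134). Mlkl reads therefore remained in the knockout libraries, and whether they lie outside the removed part was not tested. With the 2 WT libraries on the MlklKO side of the clock split alone, the difference was -1.33 with an adjusted p of 0.0527. Ripk3, the kinase upstream of MLKL, was too low to be tested (0.439 to 4.78 CPM over all counts in WT and 0.621 to 1.51 in MlklKO).

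Over the transcriptome, 1739 of 11406 genes tested differed between MlklKO and WT at an adjusted p below 0.05, which is 15.2%, with 867 higher (7.6%) and 872 lower (7.65%) in MlklKO. The groups did not overlap at all for 682 genes (5.98%). Among named genes above a minimum level with no overlap, the 10 with the greatest rises were Mt1, Lcn2, Saa2, Saa1, Ugt2b37, Ttll8, Serpina3n, Steap4, Il1r1 and D10Wsu102e. The 10 with the greatest falls were Angptl8, Slc13a2, Srebf1, Mapk15, Tbx3os1, Zfp467, Lag3, Hhex, Tsc22d1 and Lmntd2. The count varied between fits: it was 1015 with the Arntl to Dbp ratio as a covariate and 636 with only WT replicates 2 and 4 as controls, which also leaves fewer libraries, of which 372 were among the 1739. Without WT replicates 5 and 6 it was 1630, of which 1134 were shared. It was 974 without MlklKO replicate 1, 1015 without replicate 2 and 1087 without replicate 4.

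The acute-phase proteins and the genes of interleukin-6 signalling had the highest shares of called members among the 31 gene lists. Of 28 acute-phase genes, all tested, 24 rose in MlklKO (85.7%, against 7.6% over all genes) and none fell. Their median log2 difference was 1.73 against -0.04 over all genes tested. The unadjusted count at p below 0.05 was 26 higher and 1 lower, and DESeq2 called 26 higher and 0 lower. Among the 14 tested genes of interleukin-6 signalling and its feedback, 13 rose (92.9%, against 7.6%). In that list 0 fell (0 at an unadjusted p below 0.05 and 0 by DESeq2) and the median was 1.71. Both lists were composed with earlier results of these data known, so their direction is not independent evidence.

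Serum amyloid A genes and lipocalin-2 serve to show the sequences upstream of these genes. For each, the 250 bases before the RefSeq start are given on the gene's strand (GRCm38.p6, a build earlier than the one used for the counts). Capitals mark matches, on either strand, to TTGCNNAA, a pattern of the kind bound by C/EBP factors, the class that relays acute-phase signals in hepatocytes. Saa1 lies at chr7:46742981-46743230 on the minus strand, Saa2 at chr7:46751583-46751832 on the plus strand and Lcn2 at chr2:32387740-32387989 on the minus strand.
Saa1: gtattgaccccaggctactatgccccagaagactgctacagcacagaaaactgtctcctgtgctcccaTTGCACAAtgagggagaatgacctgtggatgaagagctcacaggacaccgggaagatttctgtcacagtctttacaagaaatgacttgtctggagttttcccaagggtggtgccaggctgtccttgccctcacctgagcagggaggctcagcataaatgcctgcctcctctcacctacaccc
Saa2: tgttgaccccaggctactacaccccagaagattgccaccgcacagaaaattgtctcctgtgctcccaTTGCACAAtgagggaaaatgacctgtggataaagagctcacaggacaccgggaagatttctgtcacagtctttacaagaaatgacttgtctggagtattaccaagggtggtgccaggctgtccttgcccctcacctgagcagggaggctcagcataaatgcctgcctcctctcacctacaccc
Lcn2: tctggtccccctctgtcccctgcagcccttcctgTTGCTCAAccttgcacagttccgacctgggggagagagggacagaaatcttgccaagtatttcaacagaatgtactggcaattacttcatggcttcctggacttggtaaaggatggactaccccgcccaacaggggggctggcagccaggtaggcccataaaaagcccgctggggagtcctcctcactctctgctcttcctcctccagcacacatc

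The Saa1 and Saa2 windows were identical at 238 of 250 positions (95.2%) when aligned with gaps, and their matches begin 182 and 183 bases before the start. These windows lie before the start, and identity of the transcripts was not measured. Whether the copies share reads, and so how counts divide between Saa1 and Saa2, is uncertain. Of the 24 acute-phase genes that rose, 19 had a promoter sequence, and 11 of these held the pattern (57.9%), against 2930 of 27025 genes in the table (10.8%). The STAT pattern TTCNNNGAA was found in 5 of the 19 (26.3%), against 8.13% of all genes. Among all 23 tested acute-phase genes with a sequence it was found in 7 (30.4%), so that 2 of the 4 that were not called, Hamp and Serpina3g, held it too, and the C/EBP pattern was found in 12 (52.2%). Of the 10 risen interleukin-6 genes with a sequence, 1 held the C/EBP pattern and 1 the STAT pattern (10% each), shares near those of all genes. These matches describe the letters and are not evidence of binding.

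Saa1, a circulating acute-phase apolipoprotein, was read at 12.3 to 43.7 CPM in WT (median 21.2) and at 472 to 4047 CPM in MlklKO (median 1532). Every MlklKO library exceeded every WT library by a wide margin, and the lowest was MlklKO replicate 6. The log2 difference was 6.25 (SE 0.54, adjusted p = 5.09e-05). Lcn2, which encodes a siderophore-binding protein, had a lowest, median and highest value of 0.456, 1.93 and 6.59 CPM in WT and of 16.2, 280 and 817 in MlklKO (log2 7.03, SE 0.79, adjusted p = 0.000189). Again the groups did not overlap and MlklKO replicate 6 was lowest. Serpina3n, a secreted serine protease inhibitor, moved from a WT median of 216 CPM (95.2 to 308) to 3121 (478 to 5881) in MlklKO. Saa2 (log2 6.89), Steap4, a metalloreductase (3.70), Lrg1, a leucine-rich glycoprotein (2.33), and Saa4 (1.40) also rose without overlap. The fibrinogen chain genes Fga (2.04), Fgb (1.62) and Fgg (1.77), the source of the clotting protein, rose as well, and the smallest rise of a called member was that of Itih3 (0.95). The plots of gene level by library show this separation together with the low position of MlklKO replicate 6.

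**Figure D1:**
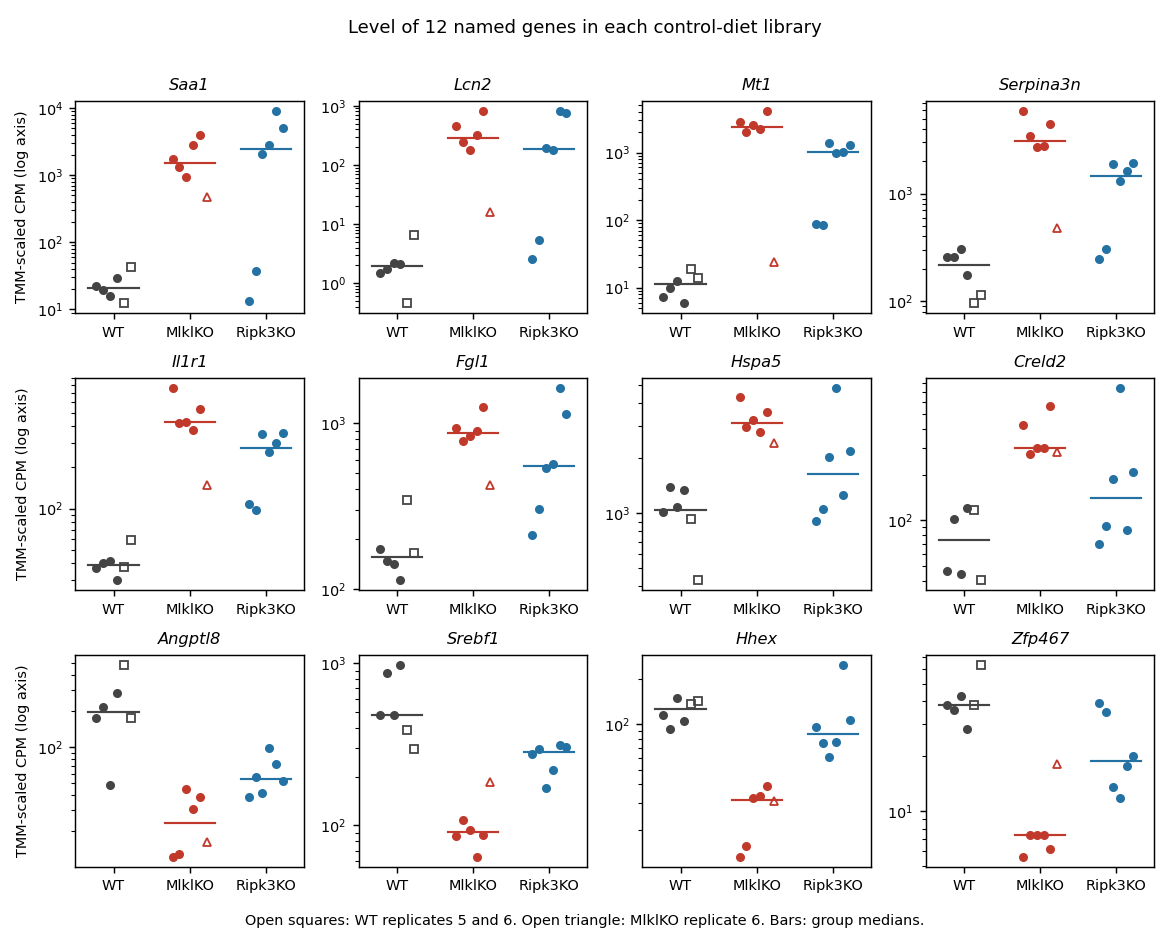
Levels of 12 genes in TMM-scaled CPM on log axes, with 1 point per control-diet library and a bar at each group's median. WT replicates 5 and 6 (open squares) and MlklKO replicate 6 (open triangle) are marked; for Saa1 all 6 MlklKO libraries (472 to 4047 CPM) lie above all WT libraries (12.3 to 43.7), and the Ripk3KO libraries form a low pair and a high set of 4 for that gene.

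The members that did not pass the test were Serpina3g (log2 1.2), the ferroxidase gene Cp (0.42, adjusted p = 0.0809), Ftl1 (-0.47) and Hamp (-0.81, adjusted p = 0.236). Hamp encodes hepcidin, the iron-regulating hormone, and its ranges overlapped widely (483 to 2635 CPM in WT, 259 to 1649 in MlklKO). Averaged over the 28 genes on the log2 scale, MlklKO replicates 1 to 5 stood 1.98 to 2.79 above the WT mean and replicate 6 stood 0.94 above it. WT libraries stayed between -0.10 and 0.14 of that mean. The count of risen members was 25 without WT replicates 5 and 6, 22 with the clock covariate and 16 with WT replicates 2 and 4 alone; in each of the latter fits 1 member fell.

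The upstream and feedback genes of the same response moved with it. Il1r1, the receptor for interleukin-1, was at 29.8 to 58.8 CPM in WT and 148 to 769 in MlklKO (medians 38.4 and 428), with no overlap and replicate 6 lowest (log2 3.42, SE 0.32, adjusted p = 6.3e-05). Fgl1, a secreted hepatokine induced by interleukin-6, went from a median of 156 CPM (113 to 344) to 872 (422 to 1262), a log2 difference of 2.20 (SE 0.30). Transcription factors of the response rose as well: Cebpd by 1.76, Junb by 1.97, Cebpb by 0.99 and Stat3 by 1.60 on the log2 scale. Pim3, a STAT3-responsive kinase, rose by 1.38. Socs3, the feedback inhibitor of gp130 signalling, ranged from 5.52 to 33.4 CPM in WT and from 9.98 to 230 in MlklKO, and rose by 2.78 (adjusted p = 0.00765) with replicate 6 inside the WT range. Cish was the member that did not pass (0.55).

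Metallothioneins, small cysteine-rich proteins that bind zinc and copper, separated most by fold. Mt1 was at 5.83 to 18.7 CPM in WT (median 11.2). It was at 2000 to 4126 CPM in 5 MlklKO libraries and at 24.1 in MlklKO replicate 6, still above every WT library. The log2 difference was 7.64 (SE 0.84, adjusted p = 0.000189). Mt2 was at 0 to 1.46 CPM in WT and 89.1 to 208 CPM in the same 5 MlklKO libraries, but at 0.447 in replicate 6, within the WT range. It did not pass the low-count filter of this comparison and has no test here. Of 8 metallothionein and zinc genes tested, 4 rose (50%, against 7.6% over all genes), 0 fell (0 at an unadjusted p below 0.05, 0 by DESeq2) and the median was 0.60. With the clock covariate 3 rose, and against WT replicates 2 and 4 alone 3 of 9 tested. The zinc importers Slc39a14 (log2 1.98, no overlap), Slc39a10 (2.38) and Slc39a1 (0.79) were the others that rose. Slc39a1 was called in 7 of 12 fits without 1 library and lost its call with the clock covariate (adjusted p = 0.0977), without WT replicates 5 and 6 (0.0683) and against WT replicates 2 and 4 alone (0.213). Slc39a10 also lost its call in the last of these fits (1.90, adjusted p = 0.0984). Slc39a14 is itself a known interleukin-6 target in hepatocytes.

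Genes of the unfolded protein response, which adds chaperones to the endoplasmic reticulum when secretory load grows, formed a further group. Of 24 tested, 14 rose (58.3%, against 7.6% over all genes) and none fell (1 lower at an unadjusted p below 0.05, 1 by DESeq2). The median log2 difference was 0.87. Promoters are shown for 3 members whose windows hold the endoplasmic reticulum stress response element, the composite site read by ATF6 with NF-Y. Capitals mark matches on either strand to CCAAT followed, after any 9 bases, by CCACG, within the 250 bases before the RefSeq start (GRCm38.p6, gene's strand). Hspa5 lies at chr2:34771840-34772089 (plus), Hsp90b1 at chr10:86705445-86705694 (minus) and Creld2 at chr15:88819396-88819645 (plus).
Hspa5: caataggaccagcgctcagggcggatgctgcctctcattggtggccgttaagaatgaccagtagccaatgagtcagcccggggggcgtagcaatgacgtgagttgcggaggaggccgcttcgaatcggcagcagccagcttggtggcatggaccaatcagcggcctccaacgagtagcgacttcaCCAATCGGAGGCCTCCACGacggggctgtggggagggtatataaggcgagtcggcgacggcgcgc
Hsp90b1: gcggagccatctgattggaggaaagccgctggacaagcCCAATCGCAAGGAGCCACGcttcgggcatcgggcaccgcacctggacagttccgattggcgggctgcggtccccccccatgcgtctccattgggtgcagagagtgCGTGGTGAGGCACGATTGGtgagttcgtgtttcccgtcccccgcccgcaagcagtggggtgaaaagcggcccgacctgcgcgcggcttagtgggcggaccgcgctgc
Creld2: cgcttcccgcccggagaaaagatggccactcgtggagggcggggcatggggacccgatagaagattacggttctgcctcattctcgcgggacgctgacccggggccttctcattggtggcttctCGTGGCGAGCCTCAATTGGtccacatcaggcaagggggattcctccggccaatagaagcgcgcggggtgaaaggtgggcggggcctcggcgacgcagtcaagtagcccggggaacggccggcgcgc

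Hsp90b1 held 2 matches and the other windows 1 each, that of Hspa5 beginning 65 bases before the start. The pattern was present in 5 of the 12 risen members with a sequence (Hspa5, Hsp90b1, Creld2, Calr and Pdia6), or 41.7%, and in 35 of 27025 genes (0.13%). The calls of Calr and Pdia6 were kept in 3 and 7 of 12 fits without 1 library. As above, a match is a description of the sequence.

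Hspa5, the master chaperone BiP, was at 430 to 1396 CPM in WT (median 1044) and 2412 to 4305 in MlklKO (median 3105). The groups did not overlap, and the lowest library of all was WT replicate 6. The log2 difference was 1.61 (SE 0.25, adjusted p = 0.00142). Creld2, a secreted reticulum protein, went from a median of 74.3 CPM (40.3 to 120) to 298 (272 to 569), a log2 difference of 2.16 (SE 0.32). Here MlklKO replicate 6, at 281 CPM, stood with the other knockout libraries, unlike its place in the acute-phase genes. Averaged over the 24 genes, the 6 MlklKO libraries stood 0.74 to 1.04 above the WT mean and replicate 6 stood 0.84 above it. The co-chaperones Dnajb11 (1.17) and Sdf2l1 (1.47), the transcription factor Xbp1 (1.60) and the chaperone Hyou1 (1.70) rose with no overlap, as did Hsp90b1, the chaperone GRP94 (0.82).

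Among the 10 members not called were Atf4 and Ddit3. Atf4, the translationally controlled factor of the integrated stress response, was at 117 to 308 CPM in WT and 91.9 to 167 in MlklKO (log2 -0.67, adjusted p = 0.0786); it was called lower in 2 of 11 alternatives. Ddit3, which encodes CHOP, differed by -0.41 (SE 0.38) with ranges of 6.34 to 36.9 and 9.47 to 17.3 CPM. These 2 genes were chosen for mention after their values were seen. The count of risen members was 14 without WT replicates 5 and 6, 12 with the clock covariate and 9 with WT replicates 2 and 4 alone.

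**Figure D2:**
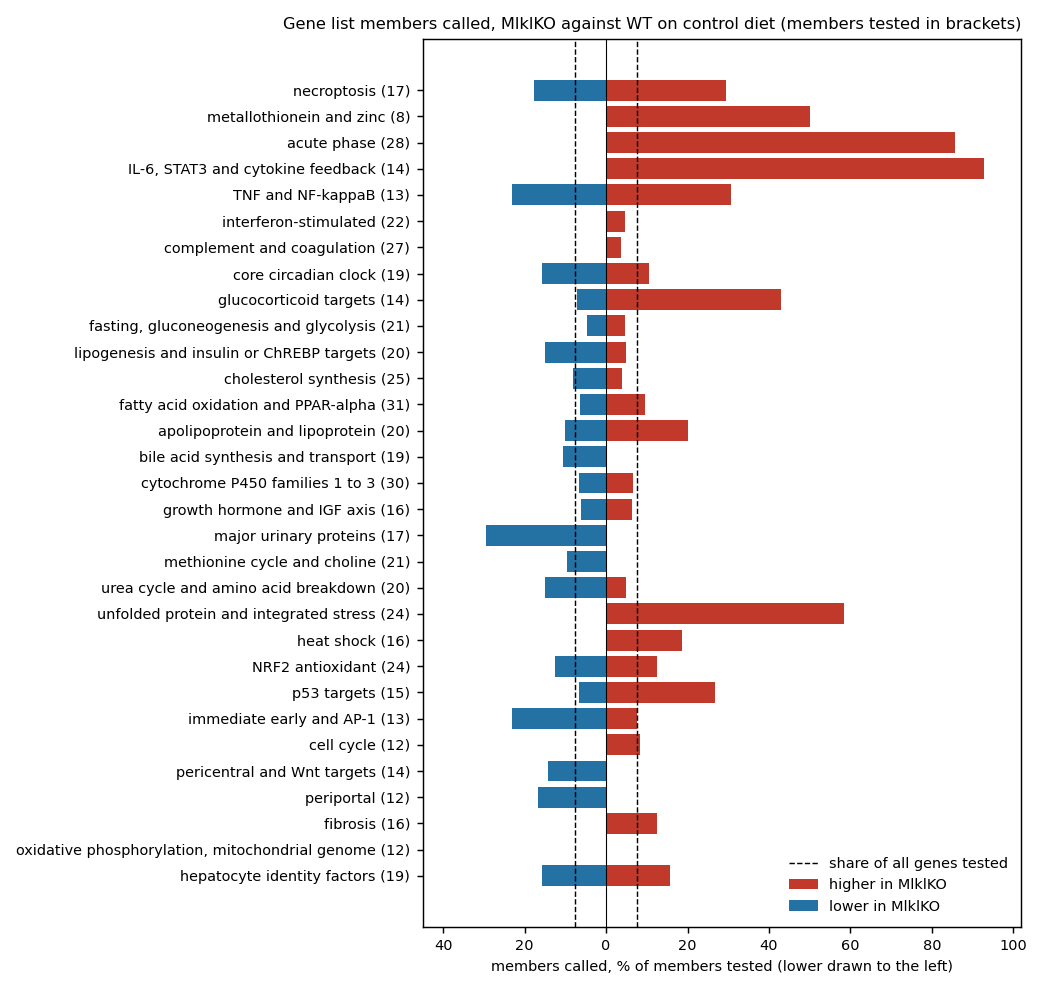
Members called higher (right) or lower (left) in MlklKO, as a percentage of the members tested in each of 31 gene lists, for MlklKO against WT on control diet. Dashed lines mark the shares among all genes tested, 7.6% higher and 7.65% lower; the interleukin-6 (92.9%), acute-phase (85.7%) and unfolded protein (58.3%) bars reach farthest to the right.

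Of 20 tested genes of lipogenesis and insulin response, 3 fell and 1 rose (20% called, against 15.2% over all genes), with a median of -0.17. Srebf1, which encodes the lipogenic transcription factor SREBP-1, was at 296 to 983 CPM in WT (median 481) and at 63.8 to 185 in MlklKO (median 90.5). No MlklKO library reached the WT range, and replicate 6 was the highest of them. The log2 difference was -2.52 (SE 0.32, adjusted p = 0.000514). Angptl8, an insulin-induced inhibitor of lipoprotein lipase, went from a median of 195 CPM (48.3 to 489) to 23.3 (12 to 44.8), a difference of -3.20 (SE 0.48, adjusted p = 0.00125). Gpam, an acyltransferase that starts glycerolipid synthesis, fell by 1.10 on the log2 scale, and Lpin1, a phosphatidate phosphatase, rose by 1.85, both with overlapping groups; each was called in 3 of 12 fits that left out 1 library. Lpin1 differed by 0.67 (adjusted p = 0.42) against WT replicates 2 and 4 alone and also lost its call without WT replicates 5 and 6. Fasn, the fatty acid synthase, differed by -0.48 (SE 0.29, adjusted p = 0.267) and Acly, the citrate lyase that supplies its substrate, by 0.32 (SE 0.33, adjusted p = 0.541).

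Among genes of fat use and storage, Angptl4, another secreted lipase inhibitor, was higher in every MlklKO library (243 to 369 CPM, median 287) than in any WT library (49.4 to 117, median 96.0), with a log2 difference of 1.62 (SE 0.21, adjusted p = 0.000534). The lipid-droplet coat genes Cidec (2.07) and Plin2 (1.24) rose, each with replicate 6 inside the WT range. Plin2 lost its call without WT replicates 5 and 6 (adjusted p = 0.0509), without MlklKO replicate 1 (0.0508) and against WT replicates 2 and 4 alone (0.0913), where Cidec also lost its call (1.49, adjusted p = 0.156). Acaa1b, a peroxisomal thiolase, fell by 1.05 on the log2 scale without overlap. Pdk4, which holds back pyruvate oxidation, differed by -0.98 (adjusted p = 0.0457), a call kept in 5 of 11 alternatives and 4 of 12 fits without 1 library. In all, 3 rose and 2 fell of 31 tested genes of fatty acid oxidation (16.1%), a share near the background of 15.2%. The counts were 1 higher and 5 lower against WT replicates 2 and 4 alone, and 2 higher and 4 lower without WT replicates 5 and 6. Pfkfb3, which makes a sugar phosphate that activates glycolysis, rose by 2.56 (4.15 to 46.3 CPM in WT, 73.7 to 162 in MlklKO). In cholesterol metabolism Sqle, an enzyme of sterol synthesis, rose by 1.08 and Insig1, which restrains it, fell by 1.05, within a list of 25 in which 1 rose and 2 fell (12%), a share below the background of 15.2%. Against WT replicates 2 and 4 alone 0 of the 25 were called. The apolipoprotein genes Apoa4 (1.97) and Apoa5 (0.97) rose within a list of 20 in which 4 rose and 2 fell (30%, against 15.2%). Leaving out single libraries gave 2 to 4 higher and 0 to 4 lower in that list, and the clock covariate gave 3 and 0. Against WT replicates 2 and 4 alone 1 was higher and 0 lower, and Apoa4 (adjusted p = 0.0627) and Apoa5 (0.0685) were not called.

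The clock genes showed the mixed phase of the WT group directly. Arntl, which encodes the activator BMAL1, was at 15.5 to 33.4 CPM in WT replicates 1, 3, 5 and 6, at 2.68 and 0.614 in WT replicates 2 and 4, and at 1.29 to 4.77 in MlklKO. It was called lower in MlklKO (log2 -2.31, SE 0.59, adjusted p = 0.0188), although the groups overlap. Against WT replicates 2 and 4 alone, the difference was 0.86 (adjusted p = 0.39). Dbp, an output gene in the opposite phase, ranged from 4.96 to 197 CPM in WT and from 30.8 to 132 in MlklKO, with a difference of 0.06 (SE 0.75). In all, 2 of 19 clock genes tested rose (Nr1d1, 1.03; Per1, 0.98) and 3 fell, Arntl and Cry1 among them (26.3% called, against 15.2% over all genes). Nr1d1 and Per1 were each called in 6 of 12 fits that left out 1 library, and Per1 was also lost with the clock covariate, without WT replicates 5 and 6 and against WT replicates 2 and 4 alone, where its difference was 0.27 (adjusted p = 0.471). Cry1, a repressor of the loop, was lower in all 6 MlklKO libraries (4.34 to 7.86 CPM) than in any WT library (8.78 to 23.0), with a log2 difference of -1.38 (SE 0.24, adjusted p = 0.00311). Cry1 remained lower against WT replicates 2 and 4 alone, with a difference of -1.84 (adjusted p = 0.0102). In that fit 2 clock genes were called higher and 6 lower, among them Per3 (-1.79). The MlklKO libraries did not match those WT libraries in phase either, since their log2 Arntl to Dbp ratios (-5.01 to -3.71) lay above those of WT replicates 2 and 4 (-5.84 and -8.01).

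**Figure D3:**
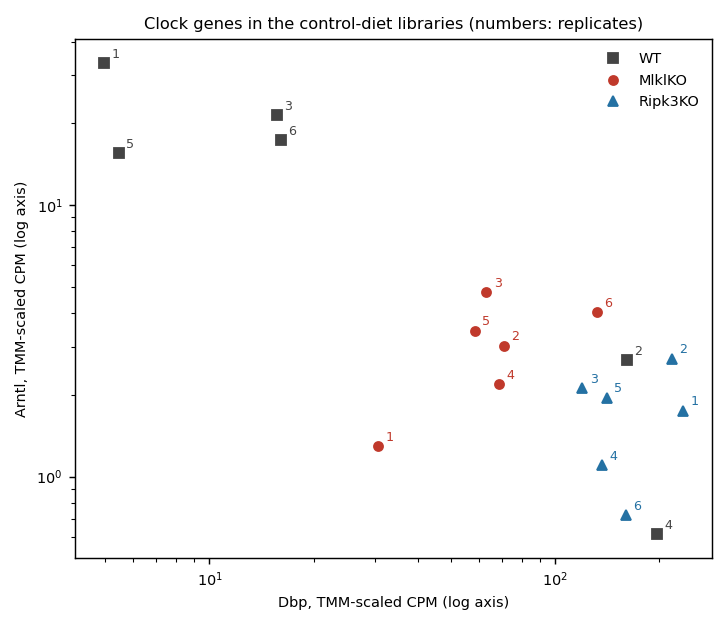
Level of Arntl against level of Dbp in each control-diet library, both in TMM-scaled CPM on log axes, with replicate numbers beside the points. WT replicates 1, 3, 5 and 6 lie at the upper left (Arntl 15.5 to 33.4 CPM) and WT replicates 2 and 4 at the lower right near the knockout libraries; the 6 MlklKO libraries have Arntl at 1.29 to 4.77 CPM.

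Other clock members differed by less than their errors allowed to call: Clock (-0.45), Per2 (-0.22), Per3 (-0.52), Cry2 (0.09), Nr1d2 (0.32), Rora (-0.54), Tef (-0.0035), Hlf (-0.40), Nfil3 (0.63), Ciart (0.44), Bhlhe40 (0.09), Bhlhe41 (1.25) and Usp2 (-1.14). Npas2 was not tested, and its WT values of 8.55, 0, 9.18, 0.307, 1.82 and 5.12 CPM in replicates 1 to 6 followed the same split. Nr4a1, an immediate-early nuclear receptor, was called lower (log2 -3.23, adjusted p = 0.0095), yet its values in WT replicates 2 and 4 (2.93 and 0.307 CPM) lay in or near the MlklKO range of 1.08 to 5.59. Against those libraries its difference was 0.21. The glucocorticoid target Fkbp5 likewise had WT values of 105 and 124 CPM in replicates 2 and 4 and 15.4 to 22.7 in the others, against 138 to 274 in MlklKO (log2 1.89, adjusted p = 0.0195; 0.72 and 0.0992 against replicates 2 and 4). With the clock covariate Fkbp5 differed by 1.55 (adjusted p = 0.00452) and Nr4a1 by -1.06 (0.305). Dusp1, a phosphatase that limits MAP kinase signalling, fell by 1.46 and Ddit4, an inhibitor of mTOR signalling, rose by 1.16. In the glucocorticoid list 6 rose and 1 fell of 14 (50%, against 15.2%). The risers numbered 2 without MlklKO replicate 1, 3 without WT replicates 5 and 6, 4 with the clock covariate and 1 against WT replicates 2 and 4 alone.

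Of 13 TNF and NF-kappaB genes tested, 4 rose and 3 fell (53.8% called, against 15.2% over all genes). The 3 calls of a fall came down to 1 with the clock covariate or without WT replicates 5 and 6, and to 0 against WT replicates 2 and 4 alone, where 1 gene was higher. Cxcl1, a neutrophil-attracting chemokine, was at 1.82 to 10.7 CPM in WT and at 188 to 353 in MlklKO replicates 1 to 5, with replicate 6 at 6.55 inside the WT range (log2 5.45, SE 0.73, adjusted p = 0.000676). The adhesion molecule Icam1 rose by 1.88 and the inhibitor of NF-kappaB signalling Tnfaip3 by 2.63. Il1b, the cytokine that signals through Il1r1, differed by -1.62 (adjusted p = 0.0324). Its call was kept in 7 of 11 alternatives and 4 of 12 fits without 1 library, and was lost with the replicate block, and its difference against WT replicates 2 and 4 alone was -0.23. Tnfaip2 fell by 1.38, and its difference against those libraries was -0.37 (adjusted p = 0.32). Interferon-stimulated genes showed 1 riser among 22 tested, Irgm1 (0.75), a share of 4.55% that lies below the background of 15.2%. Irgm1 kept its call in 2 of 12 fits without 1 library and lost it with scaling by library size alone, without WT replicates 5 and 6 (adjusted p = 0.0794) and against WT replicates 2 and 4 alone (0.0508). With the clock covariate 3 genes of that list rose. Of 27 complement and coagulation genes tested, 1 was called higher and 0 lower, a share of 3.7%. At an unadjusted p below 0.05 the counts were 6 higher and 2 lower, DESeq2 called 5 and 1, and the fit of all 44 libraries called 4 and 1.

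Markers of other liver cells were examined as lists. Among Kupffer cell markers 0 of 11 tested were called (1 higher and 3 lower at an unadjusted p below 0.05, 1 by DESeq2), and their summed level was 563 to 665 CPM in WT and 551 to 834 in MlklKO. Only 2 of 13 neutrophil markers were abundant enough to test and 0 were called (0 at an unadjusted p below 0.05 and 0 by DESeq2), with sums of 1.84 to 18 and 5.36 to 20.1 CPM. Without the count filter 2 neutrophil markers were called higher, as were 2 in the fit of all 44 libraries, and leaving out single libraries gave 0 to 1. For recruited or lipid-associated macrophages 4 of 12 markers were abundant enough to test and 2 rose (50%, against 15.2%), Spp1 (0.97) and Fabp5 (1.76). The summed level of that list was 122 to 183 CPM in WT and 198 to 584 in MlklKO, with no overlap. Both genes are also made by other liver cells. Of 12 sinusoidal endothelial markers, all tested, Pecam1 (0.52) and Lyve1 (1.07) rose and Kdr (-0.71) and Fcgr2b (-0.58) fell (33.3%, against 15.2%). Their summed level was 353 to 443 CPM in WT and 279 to 450 in MlklKO. Leaving out single libraries gave 0 to 2 higher and 0 to 3 lower in that list, and 0 were called against WT replicates 2 and 4 alone. For cholangiocytes 4 of 10 markers were tested and 2 rose (50%, against 15.2% over all genes). These were Spp1 again and Epcam (2.14), an adhesion molecule that was above the WT range in 4 MlklKO libraries. The 2 other markers tested were lower at an unadjusted p below 0.05 and were not called, and the median of the list was 0.17. That list summed to 62.9 to 120 CPM in WT and 94.5 to 163 in MlklKO, and 1 marker was called with the clock covariate or without WT replicates 5 and 6. The part of these cell types in the results above was not tested. Col4a1, a basement-membrane collagen, rose by 1.81 with replicate 6 inside the WT range.

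Of the necroptosis list, 5 genes rose and 3 fell among 17 tested (47.1% called, against 15.2% over all genes). With the clock covariate 3 rose and 1 fell. The risers were the death receptor Tnfrsf1a (log2 1.85), the deubiquitinase Tnfaip3, the adaptor Ticam1 (1.04), the kinase Ripk1 (0.78) and the protease Casp8 (0.75). Ticam1 and Ripk1 were higher in all 6 MlklKO libraries than in any WT library (Ripk1 at 36.3 to 76.8 against 21.0 to 34.2 CPM), whereas Casp8 in MlklKO replicate 6, at 23.7 CPM, was below the WT range of 26.3 to 30.4. With the clock covariate the calls of Ripk1 (adjusted p = 0.0582) and Casp8 (0.0544) were lost. Mlkl itself, the adaptor Tradd (-0.65) and the ubiquitin ligase Birc3 (-0.69) were called lower. Tradd kept its call in 1 and Birc3 in 6 of 12 fits without 1 library, and both lost it without a count filter, with the clock covariate and without WT replicates 5 and 6. Against WT replicates 2 and 4 alone Tnfrsf1a was the one of these 8 genes still called (1.87, adjusted p = 0.0467), and Ripk1 differed by 0.65 with an adjusted p of 0.174.

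Detoxifying and secreted hepatocyte proteins gave smaller groups. Ugt2b37, a glucuronosyltransferase, was at 0.614 to 2.73 CPM in WT and 12.7 to 57.1 in MlklKO (log2 4.85, SE 0.45, adjusted p = 6.03e-05); it has close paralogs with which reads can be shared. Of 30 tested cytochrome P450 genes 2 rose (Cyp2c40, 2.75; Cyp2c70, 1.23) and 2 fell (Cyp2u1, -1.83; Cyp3a25, -1.05), a share of 13.3% against 15.2% over all genes. Cyp3a25 lost its call with the clock covariate (adjusted p = 0.0677), without WT replicates 5 and 6 (0.0572) and against WT replicates 2 and 4 alone (0.214), and Cyp2c40 in the last of these (0.0889). Major urinary protein genes, the pheromone carriers of male mouse liver, fell in 5 of 17 tested and rose in none (0 at an unadjusted p below 0.05, 0 by DESeq2), with a median of -1.08. The share of falls was 29.4% in the list and 7.65% over all genes tested. The number of falls was 2 to 11 when single libraries were left out, and 2 with the clock covariate or against WT replicates 2 and 4 alone. Their copies are near-identical, so that single members such as Mup20 (-0.90), Mup14 (-1.08) and Mup21 (-1.12) are uncertain, and Mup21 lost its call with the clock covariate, Mup14 against WT replicates 2 and 4 alone, and Mup20 with the replicate block and in 6 of 12 fits without 1 library. Among antioxidant targets of NRF2, Srxn1 (3.20), Hmox1 (1.27) and Txnrd1 (1.06) rose, and Gsta2 (-1.09), Gstp1 (-0.70) and Nfe2l2, the factor itself (-0.89), fell, out of 24 (25%, against 15.2%). The number that fell was 7 without WT replicates 5 and 6 and 5 by DESeq2 or with scaling by library size alone. Gstp1 was called in 4 of 12 fits without 1 library and lost its call without a count filter, with the replicate block and against WT replicates 2 and 4 alone. Nfe2l2 (adjusted p = 0.0596) and Txnrd1 (0.0593) lost theirs with the clock covariate, and also against WT replicates 2 and 4 alone (0.121 and 0.127). Srxn1, sulfiredoxin, was at 261 to 618 CPM in MlklKO replicates 1 to 5 and 29.5 in replicate 6, within the WT range of 27.8 to 48.9.

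Hhex, a homeobox factor needed for liver development, was at 92.4 to 151 CPM in WT and 13.1 to 38.7 in MlklKO (medians 126 and 31.6), with no overlap and replicate 6 among the others (log2 -2.21, SE 0.26, adjusted p = 0.000261). Zfp467, a zinc-finger protein, fell by 2.29 and Tsc22d1, a TGF-beta-responsive factor, by 2.16, both with MlklKO replicate 6 nearest to WT. Among hepatocyte identity factors, Hnf4a rose by 0.94 and the orphan receptor Nr2f2 fell by 1.25, within a list of 19 in which 3 rose and 3 fell (31.6%, against 15.2%). With the clock covariate 1 rose, and Hnf4a lost its call (adjusted p = 0.0528), as it did against WT replicates 2 and 4 alone (0.157). Mapk15 (-2.43), Tbx3os1 (-2.35), Lag3, an inhibitory T cell receptor (-2.26), and Lmntd2 (-2.15) had their highest levels in WT replicates 5 and 6. Against WT replicates 2 and 4 alone Mapk15 differed by -0.52 (adjusted p = 0.202), and it also lost its call with the clock covariate. Without replicates 5 and 6 the differences were -1.13 for Mapk15 and -1.29 for Tbx3os1; the latter is an antisense transcript, and whether strand was used in counting is not given in the sources used here. Slc13a2, a citrate and succinate transporter, fell by 2.70. Ttll8, a tubulin glycylase, was at or under the 3-read floor in WT (0 to 0.614 CPM) and at 3.57 to 10.2 CPM in MlklKO, at least 5.32-fold higher.

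A set of 255 genes, 142 higher and 113 lower, kept its call and direction in all 11 alternatives other than leaving out single libraries (14.7% of the 1739 and 2.24% of all genes tested), and 235 of them also did so when each library was left out in turn. It held 16 acute-phase genes, 8 interleukin-6 genes and 8 unfolded protein genes, each of them higher, and 3 lipogenesis genes, each of them lower. The 5 greatest rises in the set were those of Mt1, Lcn2, Saa2, Saa1 and Ugt2b37, and the 5 greatest falls those of Angptl8, Srebf1, Zfp467, Hhex and Tsc22d1. Srebf1 differed by -3.18 (adjusted p = 0.00109) and Angptl8 by -3.29 (adjusted p = 0.00659) against WT replicates 2 and 4 alone. Hspa5 remained higher there by 1.21 (adjusted p = 0.0216) and Saa1 by 6.23 (adjusted p = 0.0102). Among called genes named here that are not in the set, Cebpd, Hsp90b1, Tnfaip3, Icam1, Hmox1, Gsta2, Sqle, Insig1, Slc13a2, Tbx3os1, Lag3, Lmntd2, Nr2f2, Fabp5, Dusp1, Ddit4, Utp4 and Map1lc3b lost their calls in that fit and in no other of the 11, at adjusted p-values from 0.0527 (Cebpd) to 0.246 (Fabp5).

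**Figure D4:**
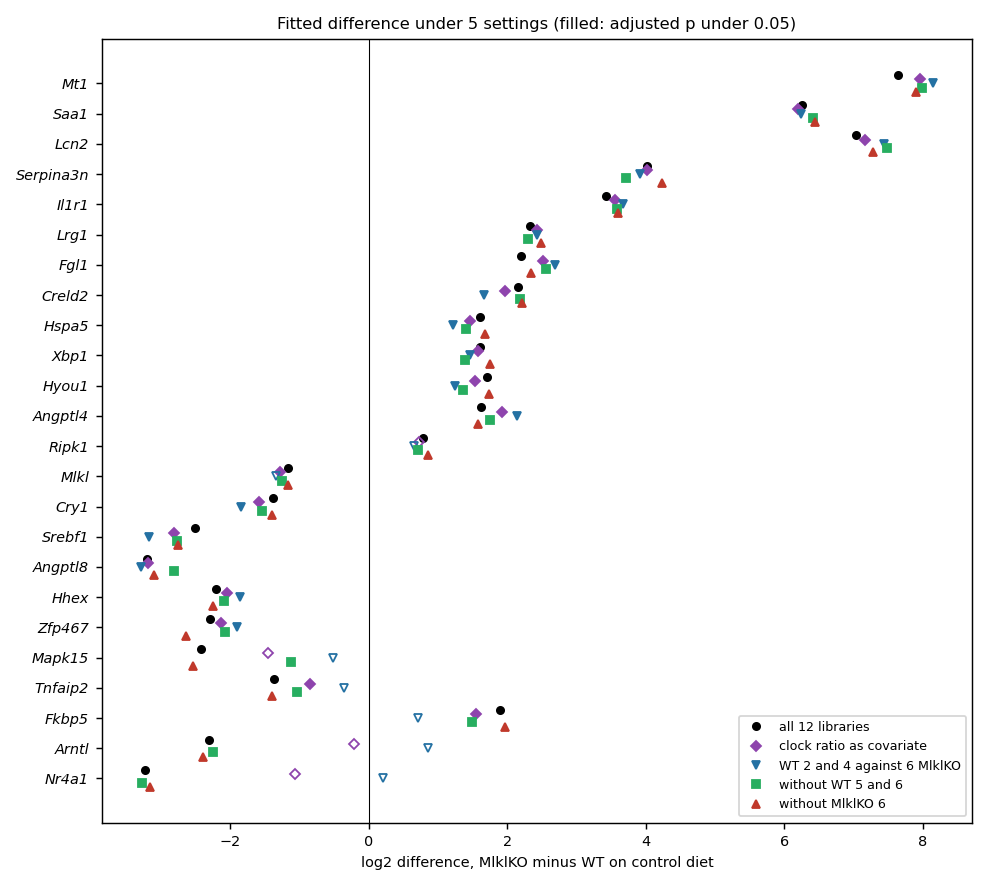
Fitted log2 difference of 24 genes, MlklKO minus WT on control diet, under 5 settings (symbols), filled where the adjusted p was below 0.05. Saa1 lies between 6.20 and 6.45 and Hhex between -2.25 and -1.86 in all of them, whereas Arntl moves from -2.31 to 0.86 and Nr4a1 from -3.23 to 0.21 when only WT replicates 2 and 4 serve as controls.

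Genes neighbouring Mlkl were examined because a knockout chromosome can carry flanking sequence from another strain. Of the 100 tested genes nearest to Mlkl, 50 on each side, 17 were called (17%), 11 higher and 6 lower, with a median of -0.05, close to the background of 15.2%. Among those with the smallest p values were 6430548M08Rik (2.16), Sf3b3, a splicing factor (0.96), Utp4, of ribosome assembly (1.01), Map1lc3b, the autophagosome protein LC3B (0.71), and Hp, haptoglobin, an acute-phase protein (1.14). 6430548M08Rik was at 5.47 to 11.2 CPM in WT and 20.3 to 49.2 in MlklKO (adjusted p = 0.000284).

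Whether the MlklKO difference differed from that of the other necroptosis knockout was tested directly against Ripk3KO on control diet, so that the shared WT libraries cancel. Ripk3KO replicate 5 held 9 reads of Ripk3 (1.26 CPM, against a WT median of 1.26), and the other Ripk3KO libraries held 0 to 2 reads. At an adjusted p below 0.05, 121 of 11799 genes differed (1.03%), 68 higher (0.576%) and 53 lower (0.449%) in MlklKO, and 123 and 41 with scaling by library size alone. Single libraries moved this count: it was 667 without MlklKO replicate 6, 29, 22, 27, 79 and 52 without MlklKO replicates 1 to 5, and 23 and 19 without Ripk3KO replicates 1 and 2. None of 28 acute-phase genes and none of 24 unfolded protein genes was called, at unadjusted counts of 2 higher and 2 lower and of 0 and 0; DESeq2 called 1 acute-phase gene higher and 0 lower, and 0 unfolded protein genes. Saa1 differed by -0.75 (SE 0.86) and Hspa5 by 0.66 (SE 0.34), intervals too wide to show that the knockouts were alike. Ripk3KO replicates 1 and 2 stood 0.30 and 0.47 above the WT mean over the acute-phase genes, and replicates 3 to 6 stood 2.19 to 3.19 above it.

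Among the genes that did differ between the knockouts, Hhex was lower in MlklKO than in any Ripk3KO library (13.1 to 38.7 against 60.5 to 250 CPM; log2 -2.01, SE 0.32, adjusted p = 0.00606). Ugt2b37 was higher (12.7 to 57.1 against 0.194 to 9.61 CPM; 3.04, SE 0.49, adjusted p = 0.00606). Srebf1 was lower by -1.34 (SE 0.28, adjusted p = 0.0247) and Zfp467 by -1.40 (SE 0.33, adjusted p = 0.041). Srxn1 was higher by 3.51 (SE 0.43, adjusted p = 0.000345), with MlklKO replicate 6 (29.5 CPM) inside the Ripk3KO range of 23.3 to 38.9. The calls of Srebf1, Zfp467 and Srxn1 were not followed through the other fits of this comparison. The formin Fmnl2 (1.44) and the pseudokinase Peak1 (1.26) were higher in MlklKO. The carboxylesterase Ces1b (-2.43), the purinergic receptor P2ry1 (-1.56) and the adenosine receptor Adora1 (-1.5) were lower. The calls of Fmnl2, Peak1 and P2ry1 were lost with the replicate block and with the clock covariate, and that of Ces1b with the block; leaving out single libraries kept the calls of Fmnl2, Peak1, P2ry1 and Ces1b in 8, 10, 6 and 7 of 12 fits. The calls of Hhex and Adora1 were kept in all 9 alternatives. With the replicate block or the clock covariate the count was 11 or 23, and the adjusted p of Ugt2b37 was 0.0516 with the covariate.

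The MlklKO minus WT difference was not the same on CD-HFD. A test of the difference between diets over all 44 libraries called 612 of 14862 genes (4.12%), 235 more positive (1.58%) and 377 more negative (2.54%) on CD-HFD. Of 28 acute-phase genes 13 were more negative and 0 more positive (0 at an unadjusted p below 0.05 and 0 by DESeq2), as were 9 of 15 interleukin-6 genes and 8 of 26 unfolded protein genes. On CD-HFD Saa2 was at 55.7 to 114 CPM in WT and 49.0 to 55.3 in MlklKO, between the control-diet WT and MlklKO levels, and the interaction was -7.66 on the log2 scale (SE 1.40, adjusted p = 0.00122). Lcn2 was high in both genotypes on that diet (304 to 592 CPM in WT, 320 to 485 in MlklKO), with an interaction of -7.16 (SE 1.28). Mt2 was at 0.654 to 6.39 and 1.56 to 9.25 CPM there (interaction -7.39, SE 1.45). Hspa5 had a median of 798 CPM and a highest value of 1241 in WT on CD-HFD, and of 1044 and 1058 in MlklKO (interaction -1.52, SE 0.45, adjusted p = 0.043).

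In the other direction, Srebf1 was at 81.6 to 171 CPM in WT and 72.7 to 138 in MlklKO on CD-HFD, so that the gap seen on control diet was missing, and the interaction was 2.13 (SE 0.40, adjusted p = 0.00181). Hhex had an interaction of 1.59 (SE 0.46, adjusted p = 0.0365). The greatest positive interactions were those of Rfx4, a ciliary-gene factor (3.52), Igfbp5, an IGF-binding protein (3.17), and Nr4a1 (3.09). Their WT control values were widely spread, at 0.307 to 9.86, 0.614 to 16.7 and 0.307 to 36.0 CPM. None of these 3 kept its call with the clock ratio as a covariate, and Rfx4 and Nr4a1 also lost theirs with only the 4 groups fitted. The interaction counts rest on 3 MlklKO libraries on CD-HFD. Mlkl was at 12.5 CPM in replicate 1 of them, close to the 14.3 to 17.6 of WT on that diet. It was at 2.79 and 4.82 CPM in the others, and the cause was not tested. The count of called genes was 195 without replicate 4 of these libraries, 289 without replicate 2 and 470 without replicate 1. Without MlklKO control replicates 1, 5 and 6 in turn it was 383, 393 and 1265.

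**Figure D5:**
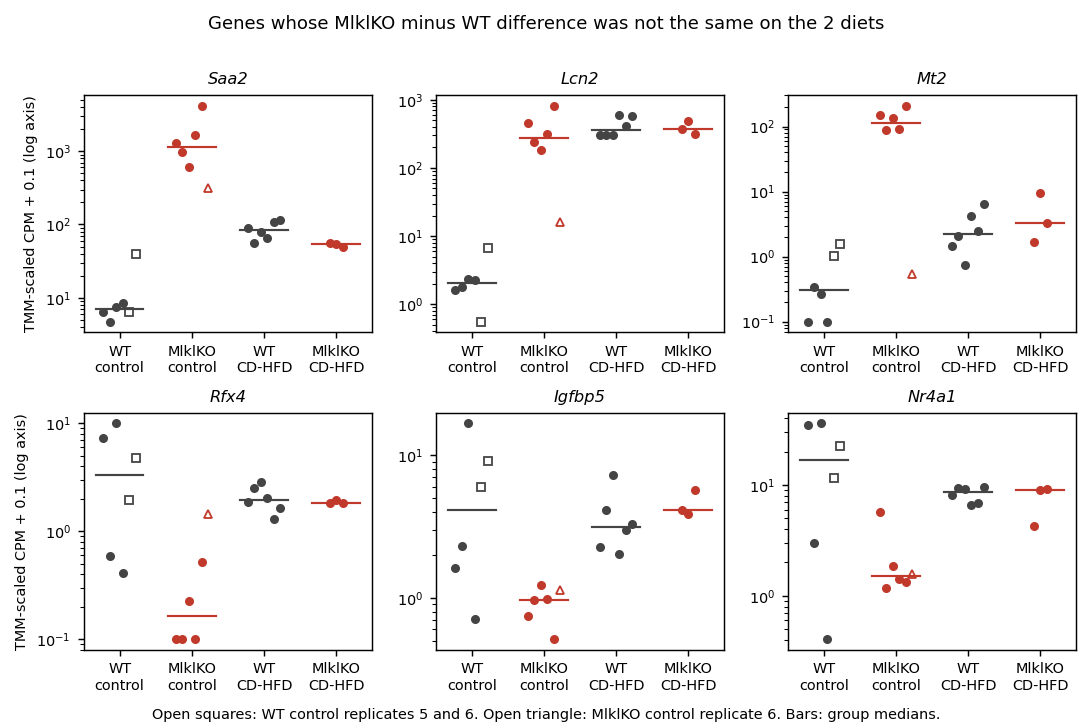
Levels of 6 genes in TMM-scaled CPM plus 0.1 on log axes in WT and MlklKO libraries on control diet and on CD-HFD, with bars at the group medians. Saa2 and Lcn2 separate the genotypes without overlap on control diet, at 49.0 to 55.3 CPM for Saa2 in MlklKO on CD-HFD, and Rfx4, Igfbp5 and Nr4a1 spread widely among WT control libraries.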

How the data were processed

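Liver RNA was sequenced in 44 libraries made with a directional kit, per the labels' protocols; whether counting used strand is not given in the sources used here. The authors deposited raw read counts per Ensembl gene in 1 table of 35249 genes, not normalised; the submitters' processing notes name FastQC, STAR, HTSeq, edgeR and limma and the builds GRCm39 and mm39, without roles, and tool versions are not given in the sources used here. Identifiers were paired with symbols for 34373 genes; the 876 others held 0.0838% of counts, and 6 listed genes were not analysed here. No per-sample column was left unmapped.

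Genes were kept by filterByExpr (minimum count 10), scaled by TMM and tested with the edgeR (4.0.16, R 4.3.3) quasi-likelihood F test, two-sided, with Benjamini-Hochberg adjustment over all genes tested and a threshold of 0.05. The MlklKO minus WT fit used only the 12 compared libraries, because the WT control libraries were known to be uneven; the comparison with Ripk3KO used the 18 control-diet libraries and the diet interaction all 44. SE is the log2 difference divided by the square root of F. Floors are 3 counts of a group's smallest library (1.21 CPM in WT, 0.550 in MlklKO) and cover counting error only. The labels do not say outright that each replicate is a separate mouse, so p values measure only the spread between these libraries. Chi-square per degree of freedom between libraries of a group was 8.33 to 109.8, so none was a repeat of another.

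The comparison, the gene lists and the tests were chosen with earlier results of these data known. Named genes were the 10 greatest rises and falls among called genes with a mean log2 CPM of at least 1, no overlap and a symbol that is no predicted gene; up to 6 called members of each list by smallest p; up to 6 called neighbours of Mlkl; 4 and 4 genes against Ripk3KO and 3 and 3 for the interaction; and always Mlkl, Ripk3, the clock genes, Mt1 and Mt2. Hsp90b1, Calr, Pdia6, Atf4, Ddit3, Hamp, Cp, Serpina3g, Ftl1, Cish, Fga, Fgb, Fgg, Itih3, Fasn, Acly, Stat3 and Socs3 were added after their values were seen. Some genes that the rule names are not reported here. Gene order came from GENCODE M21 and promoter sequences from RefSeq (GRCm38.p6), searched on both strands. On simulated counts of the real genes the MlklKO minus WT test recovered 42% of 2-fold and 93% of 4-fold changes over 11406 genes. It also called 13 unchanged genes. These counts were drawn around 1 mean per gene, without the clock split or libraries that stand apart, so the shares need not hold for the real libraries. Alternatives included DESeq2 (1.42.0), RLE factors, library size alone, no filter, a robust fit, the replicate block, all 44 libraries, the clock ratio as a covariate or a split, and leaving out libraries.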

Additional observations from a re-analysis of the deposited data

Results flagged for a closer look

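Within a group of 6 libraries, the highest or lowest was compared with its nearest neighbour on the log2 scale, as a share of the group's range, over 248 sets of 6 values. The share was above the 95% critical value of Dixon's test 19 times, and chance alone gives about 1 in 20. MlklKO replicate 6 stood apart in 11 of the 19. It was the lowest MlklKO library for Mt1 (24.1 CPM, next 2000), Mt2 (0.447, next 89.1), Serpina3n (478, next 2722), Slc39a14 (351, next 808), Lrg1 (763, next 1580), Junb (56.7, next 151), Cxcl1 (6.55, next 188), Il1b (0.149, next 1.73), Srxn1 (29.5, next 261) and Col4a1 (48.5, next 92.9), and the highest for Zfp467 (18, next 7.43). Il1b fell in MlklKO as a group, so that there replicate 6 lies farther from WT and not nearer. Other libraries apart in MlklKO were replicate 4 for Slc13a2 (2.04 CPM) and replicate 1 for Nr4a1 (5.59) and Cp (1795).

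In WT, replicate 6 was highest for Saa2 (39.5 CPM, next 8.29) and lowest for Hspa5 (430, next 934) and Dnajb11 (61.2, next 113). WT replicate 5, the shallowest library, was lowest for Mlkl (2.28 CPM, next 4.27) and highest for Hp (5380, next 3244).

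By the test of the difference itself, the MlklKO minus WT difference was not the same on CD-HFD as on control diet for Saa2 (-7.66), Mt2 (-7.39), Lcn2 (-7.16), Rfx4 (3.52), Igfbp5 (3.17) and Nr4a1 (3.09), on the log2 scale as CD-HFD minus control diet.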

How the results depend on the processing

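For MlklKO minus WT (1739 genes called), RLE factors, library size alone, no filter, a robust fit, DESeq2, and leaving out predicted genes or WT replicates 5 and 6 kept the count within 1.5 times (1619 to 2482). It was 4029 with all 44 libraries fitted, 1015 with the clock ratio as a covariate and 636 with WT replicates 2 and 4 alone, where fewer samples are tested; leaving out single libraries gave 974 to 2222. Against Ripk3KO (121) it was 241 without a filter, 533 by DESeq2, 1045 with all 44 libraries and 23 with the clock covariate, and leaving out libraries gave 19 to 667. The interaction (612) was 968 by DESeq2 and 235 with only the 4 groups fitted, and leaving out libraries gave 195 to 1265. The cause of these shifts was not tested.

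Replicate numbers were not taken as pairs: same-numbered MlklKO and WT libraries correlated at -0.244 to 0.422, over 0.1 for 4 of 6 pairs, and 1 of 6 correlated best with its own number. With the replicate block the counts were 1745 for MlklKO minus WT, 11 against Ripk3KO and 675 for the interaction; Per3 turned to 0.20 and Tef to 0.26.

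Directions turned as follows. Against WT replicates 2 and 4 alone: Arntl 0.86, Clock 0.62, Cry2 -0.70, Nr1d2 -0.25, Dbp -1.36, Ciart -1.02, Bhlhe40 -0.19, Nr4a1 0.21, Ddit3 0.16 and Acly -0.0239. With the clock covariate: Clock 0.13, Cry2 -0.27, Dbp -0.15 and Bhlhe40 -0.0433. That covariate is the ratio of Arntl to Dbp, so the fit takes out their own variation and that of genes moving with them. Such genes cannot be judged by it. Without WT replicates 5 and 6: Cry2 -0.25, Dbp -0.43, Bhlhe40 -0.26, Ddit3 0.44 and Hamp 0.00405. Tef was 0.0397 without a filter and 0.0326 with all 44 libraries. Leaving out single libraries gave ranges across 0 for Per2 (-0.40 to 0.0748), Per3 (-0.76 to 0.0688), Cry2 (-0.10 to 0.33), Dbp (-0.21 to 0.77), Tef (-0.17 to 0.29) and Bhlhe40 (-0.0668 to 0.22). Of these, Arntl and Nr4a1 were called in the comparison. Low depth in WT replicate 5 (2476268 counts) limits what can be said of genes as low as Mlkl.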
